A study of Arabidopsis thaliana with 72 samples.

Results

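The comparison described here sets the double mutant phr1 phl1 against the wild type Col-0 in seedlings that were both starved of phosphate and treated with methyl jasmonate (MeJA), the volatile form of the wound and defence hormone jasmonate. It rests on 12 of the 72 RNA-seq libraries of the series, chosen by their labels as 6 libraries of each genotype at low phosphate with MeJA, 3 from experiment A and 3 from experiment B in each group. Whole Arabidopsis thaliana seedlings were germinated for 7 days on medium with 1 mM phosphate and 1% sucrose. They were then moved for 12 days to medium with about 5 µM phosphate (low Pi, the traces left in the agar) and 10 µM MeJA, in 9 h of light and 15 h of dark. Col-0 is the reference accession. In phr1 phl1 the related MYB transcription factor genes PHR1 and PHL1 are both mutated, by alleles that the labels do not name. For context, the same genotypes were read at low Pi without any addition and at 1 mM phosphate (high Pi) with 10 µM MeJA, with 6 libraries in each of these 4 groups.

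PHR1 and PHL1 bind a short promoter element, the P1BS, and switch on genes that take up, recycle and save phosphate when it runs short. SPX proteins, themselves among the targets, hold PHR1 back while phosphate is plentiful. Jasmonate is perceived through COI1 and releases MYC and other transcription factors from JAZ repressors, and its defence programme is known to counteract that of salicylic acid, the hormone of immunity against biotrophic pathogens.

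Total counts ran from 2975878 to 6432136 per library in Col-0 and from 3058044 to 4717279 in phr1 phl1. On the first principal component, computed from the 1000 genes that varied most and holding 47.8% of their variance, the Col-0 libraries lay between -23.5 and -14.2 and the mutant libraries between 8.17 and 29.5. The second component, with 28.5%, parted experiment A from B, and the experiment was a term of every fit. The summed level of 35 photosynthesis genes, a mark of green tissue, did not overlap between the genotypes. It ran from 96600 to 176000 CPM (a count scaled to a common library total, with TMM factors) in Col-0 and from 68900 to 96100 CPM in phr1 phl1. These whole seedlings hold shoot and root, and fewer cells of a type cannot be told apart from less RNA of its genes per cell. Summed levels of endodermis genes (156 to 216 CPM in Col-0, 161 to 193 CPM in the mutant) and of cell division genes (202 to 269 and 197 to 228 CPM) overlapped.

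Of 16937 genes tested with edgeR's quasi-likelihood test, 615 (3.63%) were higher and 296 (1.75%) lower in phr1 phl1 at a Benjamini-Hochberg adjusted p below 0.05. The larger differences lay on the higher side, where 280 genes differed at least 2-fold and 107 at least 4-fold, against 30 and 1, PHT1;2, on the lower side. Of the 911 genes called, 894 had the same sign in experiments A and B fitted alone. The 911 were called from both experiments together, so equal signs largely follow from that selection. Of the 911, 333 passed the threshold in experiment A alone and 332 in experiment B alone. The 6 libraries of each genotype did not overlap in CPM for 335 genes with the mutant higher (1.98% of those tested) and 99 with the mutant lower (0.585%). The count of lower genes depended on single libraries, at 161 without phr1 phl1 A1, 180 without phr1 phl1 A2 and 144 without phr1 phl1 B1. The median log2 difference over all genes tested was -0.015. The counts of list members called below stand beside these shares of 3.63% higher and 1.75% lower over all genes tested. Unless another comparison or fit is named, an adjusted p given below for a single gene is from this test over all genes. Values after a log2 difference are standard errors (SE), and n is 6 libraries a genotype.

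The targeted genes were read first. PHR1 (AT4G28610) had a lowest, median and highest level of 52.8, 57.1 and 69.5 CPM in Col-0 and of 16.5, 21.9 and 32.7 CPM in phr1 phl1. The groups did not overlap, and reads of PHR1 were lower by a log2 difference of -1.35 ± 0.13 (adjusted p = 2.2e-06), so reads were still counted at this locus in the mutant. PHR1 overlaps AT4G28600 on the other strand, and these libraries keep no strand. PHL1 (AT5G29000) stood at 9.64, 12.2 and 20.0 CPM in Col-0 and at 43.1, 51.7 and 75.6 CPM in phr1 phl1. Its reads were higher in every mutant library than in any Col-0 library, by 2.05 ± 0.16 (adjusted p = 2.6e-07). Both genes thus differed in each library, in opposite directions, and counts over a whole gene do not show whether its reads span the mutated site or whether a protein works. The other 3 members of the PHR1 family list did not pass the test.

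**Figure D1:**
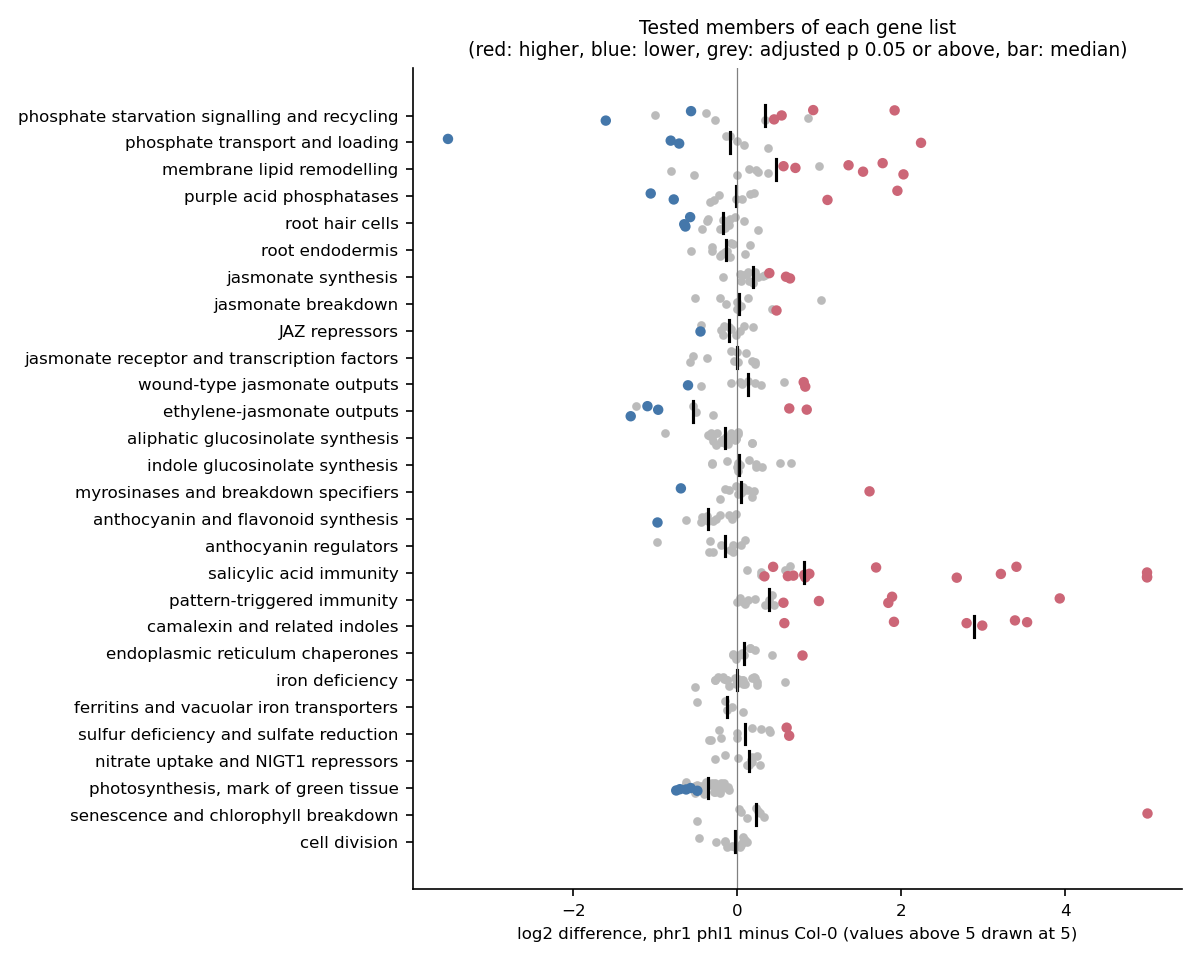
Log2 difference, phr1 phl1 minus Col-0, of the tested members of 28 gene lists at low phosphate with MeJA (n = 6 libraries a genotype), one point a gene, with values above 5 drawn at 5 and a bar at each list's median. The camalexin list has its median at 2.89 and the salicylic acid list at 0.82, whereas most other medians lie near 0.

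The genes of phosphate starvation were moved in both directions. The signalling and recycling list had 11 tested members of 13, of which 4 were higher and 2 lower in the mutant, with a median log2 difference of 0.34. That median was 0.159 in experiment B alone, 0.099 without Col-0 A1 and 0.526 without Col-0 B3. The same list had a median of -1.49 between the genotypes at low Pi without MeJA. SPX1 and SPX2, small SPX-domain proteins that sense phosphate status and restrain PHR1, were higher, by 0.93 ± 0.23 (adjusted p = 0.027) and 0.54 ± 0.12 (adjusted p = 0.0078). SPX2 ran from 15.9 to 22.9 CPM in Col-0 and from 25.5 to 33.7 CPM in phr1 phl1, without overlap. SPX4, a further member of the family, was lower, at 15.8, 17.8 and 22.3 CPM against 10.2, 12.6 and 13.9 CPM, also without overlap (-0.56 ± 0.13, adjusted p = 0.01). The call of SPX1 was lost without 1 of 5 single libraries (Col-0 A2, B1, B2 or B3, or phr1 phl1 A1), with adjusted p from 0.056 to 0.096.

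PPSPASE1, a pyrophosphatase that frees phosphate from pyrophosphate and other small substrates, had 3.18, 5.51 and 30.2 CPM in Col-0 and 23.0, 28.7 and 46.6 CPM in phr1 phl1. One Col-0 library, B3, lay among the mutant libraries, and the other 5 lay below them. The difference was 1.92 ± 0.41 (adjusted p = 0.017), and 2.62 without Col-0 B3. G3PP1, a putative glycerol-3-phosphate transporter, was higher by 0.45 ± 0.11 (adjusted p = 0.013). OCT1, an organic cation and carnitine transporter, was lower by -1.60 ± 0.43 (adjusted p = 0.031), but it overlaps an annotated gene on the other strand, its level was at most 3.25 CPM in any library, and 6 of the 12 fits that left out 1 library lost the call (Col-0 A1 or A2, or phr1 phl1 A1, A2, A3 or B3; adjusted p 0.051 to 0.083). Its difference was -2.35 without phr1 phl1 B1. The long non-coding RNAs IPS1 and AT4, which mimic the target of the microRNA miR399, did not pass the test. IPS1 had 4.93, 10.7 and 21.0 CPM in Col-0 and 5.82, 7.22 and 14.0 CPM in the mutant, a log2 difference of -0.28 ± 0.30 (adjusted p = 0.68) that became 0.085 without Col-0 A3.

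Among the phosphate transport and loading genes, 9 of 15 could be tested, of which 3 were lower and 1 was higher. PHT1;2, a high-affinity phosphate transporter of the root surface, had 3.88, 4.60 and 8.08 CPM in Col-0 and 0, 0.432 and 0.852 CPM in phr1 phl1. All 6 mutant libraries lay below all 6 Col-0 libraries (-3.53 ± 0.39, adjusted p = 8.7e-06). No mutant library reached the 2.77 CPM that the filter asks of 6 libraries. PHT1;2 thus entered the test through Col-0 alone, and its lack of overlap follows from that. PHT1;1, its close paralog and the more abundant transporter, stood at 165, 188 and 224 CPM against 81.9, 99.1 and 158 CPM (-0.81 ± 0.12, adjusted p = 0.00031), likewise without overlap. The counting could assign reads common to both copies to either gene or to none, so the values of this pair are uncertain. PHO1;H1, a phosphate exporter that works with PHO1 in xylem loading, was lower by -0.71 ± 0.20 (adjusted p = 0.039), a call lost in 8 of the 12 fits that left out 1 library (Col-0 A2, A3 or B1, or phr1 phl1 A2, A3, B1, B2 or B3; adjusted p 0.053 to 0.12).

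PHO2, the ubiquitin-conjugating enzyme that marks phosphate transporters for breakdown and is itself the target of miR399, was the higher member. Its levels were 129, 193 and 203 CPM in Col-0 and 786, 804 and 1020 CPM in phr1 phl1. The groups lay far apart, and the difference of 2.24 ± 0.14 (adjusted p = 8.2e-09) was 2.17 in experiment A and 2.32 in experiment B. PHO1 itself (-0.13 ± 0.09, adjusted p = 0.49) and the transporter PHT1;4 (0.38 ± 0.19, adjusted p = 0.3) did not pass the test.

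**Figure D2:**
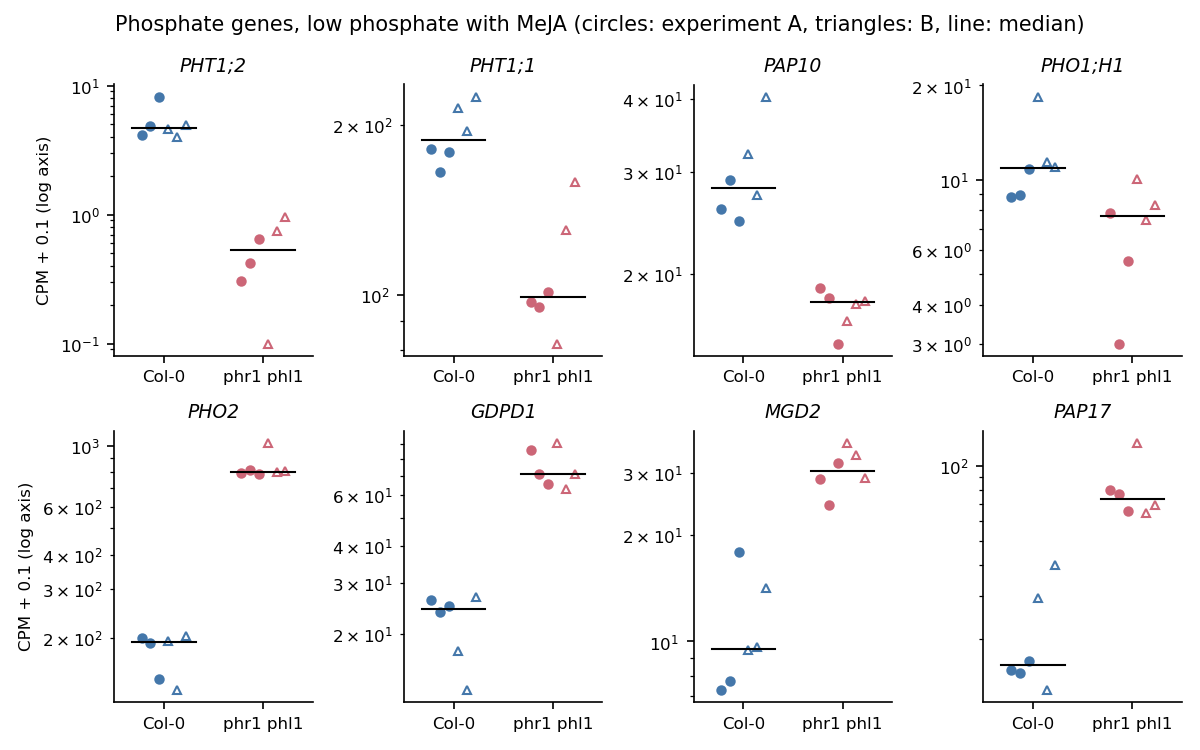
Levels of 8 phosphate genes in each library on a log axis, as CPM plus 0.1, with circles for experiment A, triangles for experiment B and a line at the median of 6 libraries. The upper row holds genes lower in phr1 phl1, with PHO1;H1 alone overlapping between the genotypes, and the lower row holds genes higher in it, none of which overlaps. PHT1;2 entered the test through Col-0 alone, so its lack of overlap follows from the filter.

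Phosphate-starved plants replace membrane phospholipids by galactolipids and sulfolipids, and the genes of that exchange that passed the test were all higher in the mutant. Of 16 members of the lipid remodelling list, 14 were tested, 6 were higher and none was lower, with a median of 0.47. At an unadjusted p below 0.05, 2 members were lower in edgeR, and DESeq2 called 0 lower. Of the 14, 5 did not overlap between the genotypes and were higher in the mutant. Over all genes tested, 3.63% were higher, and 1.98% had the mutant higher without overlap. GDPD1, a glycerophosphodiester phosphodiesterase that releases glycerol-3-phosphate from lipid remnants, had 12.7, 24.3 and 26.7 CPM in Col-0 and 63.2, 70.8 and 90.5 CPM in phr1 phl1 (1.77 ± 0.15, adjusted p = 3.5e-07). MGD2, a galactolipid synthase, had 7.18, 9.44 and 17.8 CPM against 24.3, 30.4 and 36.4 CPM (1.54 ± 0.18, adjusted p = 1.7e-05). Neither gene overlapped between the genotypes.

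PLDP2, a phospholipase D, had 3.53, 8.24 and 16.4 CPM in Col-0 and a narrow 21.8, 22.2 and 26.0 CPM in the mutant (1.36 ± 0.20, adjusted p = 0.00017), again without overlap. MGD3, the paralog of MGD2, was higher by 2.03 ± 0.32 (adjusted p = 0.00048), although its highest Col-0 library (5.46 CPM) passed its lowest mutant library (4.85 CPM). DGD1, which adds the next galactose, was higher by 0.57 ± 0.10 (adjusted p = 0.0016). SQD2, the last enzyme of sulfolipid synthesis, was higher by 0.71 ± 0.19 (adjusted p = 0.039), but the call held in only 4 of the 12 fits that left out 1 library; it was lost without Col-0 A1, A3 or B1, or phr1 phl1 A1, A3, B1, B2 or B3 (adjusted p 0.054 to 0.089). Members that did not pass the test included the phospholipase NPC4, at -0.81 (adjusted p = 0.18), and GDPD6, at 0.99 (adjusted p = 0.096).

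Purple acid phosphatases, which free phosphate from organic sources, were divided. Of 16 members, 11 were tested, 2 were higher and 2 lower. PAP17 had 12.4, 15.6 and 39.8 CPM in Col-0 and 64.2, 73.1 and 123 CPM in phr1 phl1, without overlap (1.96 ± 0.24, adjusted p = 0.00013). AT1G13750, annotated as a member of the family, was higher by 1.102 ± 0.14 (adjusted p = 3.8e-05) and did not overlap either. PAP10, a phosphatase of the root surface, went the other way, at 24.6, 28.0 and 40.2 CPM against 15.1, 17.8 and 18.8 CPM (-0.77 ± 0.12, adjusted p = 0.00042), with no overlap. PAP22 was lower by -1.05 ± 0.24 (adjusted p = 0.01). These libraries do not keep strand, and GDPD1, PLDP2, PAP17, PAP10 and AT1G13750 each touch a neighbouring annotated gene, whose reads could not be told apart where the genes overlap.

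The element that PHR1 binds was looked for in 250 bases before to 50 bases after each annotated gene start of the TAIR10.1 genome (RefSeq). The motif was GNATATNC, which reads alike on both strands. It lay in 6.25% of all 27443 promoters and in 6.22% of those of the genes tested, against 7.97% of the higher genes (49 of 615) and 7.09% of the lower genes (21 of 296). In the lipid remodelling list it lay in 10 of the 14 tested members (71.4%), and in 7 of 14 when only the 250 bases before the start were read. The other phosphate lists held it less often. It lay in 3 of 11 tested signalling and recycling genes (27.3%), 2 of 9 transport genes (22.2%) and 3 of 11 purple acid phosphatases (27.3%). A match is a stretch of letters and says nothing of whether a factor binds. The promoter stretches below end at the base before the gene start, read 5′ to 3′ on the strand of the gene with the motif in capitals. They show genes that were higher in the mutant with the motif, followed by PHT1;2, which was lower and holds it too. In order, they are chr3:350011-350160 (minus strand), chr3:1634994-1635193 (plus), chr1:27466349-27466578 (minus), chr1:4718270-4718369 (minus) and chr5:17415598-17415697 (plus).
GDPD1: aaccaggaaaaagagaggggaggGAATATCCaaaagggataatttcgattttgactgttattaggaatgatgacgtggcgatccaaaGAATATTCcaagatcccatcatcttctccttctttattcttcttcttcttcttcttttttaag
PLDP2: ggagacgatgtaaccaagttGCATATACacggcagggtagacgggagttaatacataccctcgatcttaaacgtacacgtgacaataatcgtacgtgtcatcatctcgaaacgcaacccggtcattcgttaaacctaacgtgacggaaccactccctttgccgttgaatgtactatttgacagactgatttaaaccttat
PPSPASE1: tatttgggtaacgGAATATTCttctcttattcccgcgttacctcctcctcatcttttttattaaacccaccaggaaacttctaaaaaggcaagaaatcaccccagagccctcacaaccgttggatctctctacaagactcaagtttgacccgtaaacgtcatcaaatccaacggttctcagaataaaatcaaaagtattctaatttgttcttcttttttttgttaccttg
AT1G13750: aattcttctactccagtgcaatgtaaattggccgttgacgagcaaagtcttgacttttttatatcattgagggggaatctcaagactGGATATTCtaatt
PHT1;2: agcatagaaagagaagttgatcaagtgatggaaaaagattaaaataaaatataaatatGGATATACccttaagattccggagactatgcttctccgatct
In GDPD1 the motif occurs at 2 places, with its first base 127 and 63 bases before the start. It begins 180 bases before the start in PLDP2, 217 in PPSPASE1, 13 in AT1G13750 and 42 in PHT1;2. The same letters thus stood before genes that differed in opposite directions.

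Whether the genotype difference itself changed with MeJA was tested over 24 low Pi libraries, MeJA and untreated. Of 17798 genes, 9 (0.0506%) had a more positive difference, phr1 phl1 minus Col-0, with MeJA and 1 (0.00562%) a more negative one. Of those 9, PAP7, PAP17, GDPD1, PLDP2 and G3PP1 belong to the phosphate lists. The others are AT5G20790, annotated as an uncharacterized protein, RHS12 of root hairs, the osmotin OSM34 and the germin-like GLP9. All 10 genes kept their sign in experiment A alone and in experiment B alone, which largely follows from their selection over both. All had a DESeq2 adjusted p below 0.05.

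Group means with their SD, scaled over all 72 libraries, show what lay behind these interactions. PAP17 went from 72.5 ± 33.8 CPM in untreated Col-0 to 21.6 ± 11.2 CPM with MeJA, and from 69.2 ± 14.3 to 81.2 ± 22.3 CPM in phr1 phl1. Its genotype difference was larger with MeJA than without by 1.996 ± 0.35 on the log2 scale (adjusted p = 0.033). GDPD1 went from 69.8 ± 32.3 to 22.2 ± 5.75 CPM in Col-0 and from 98.9 ± 28.2 to 75.8 ± 11.3 CPM in the mutant (1.24 ± 0.23, adjusted p = 0.033). In both genes the Col-0 level with MeJA was the lowest of the 4 groups.

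PLDP2 showed the same order, with 21.3 ± 11.4 and 9.02 ± 4.27 CPM in Col-0 and 17.5 ± 6.38 and 23.2 ± 1.64 CPM in phr1 phl1 (1.63 ± 0.32, adjusted p = 0.047). AT5G20790 went from 58.9 ± 23.4 to 13.5 ± 4.13 CPM in Col-0 and from 52.9 ± 14.9 to 47.7 ± 17.5 CPM in the mutant (1.96 ± 0.36, adjusted p = 0.047). G3PP1 went from 209 ± 55.4 to 111 ± 58.1 CPM and from 135 ± 46.2 to 146 ± 62.2 CPM (1.12 ± 0.18, adjusted p = 0.0091). For this gene the mutant was the lower genotype without MeJA (-0.66, adjusted p = 0.0059) and the higher with it.

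PAP7 moved otherwise. It stood at 16.9 ± 5.26 CPM in untreated Col-0 and 58.0 ± 14.0 CPM with MeJA, and at 3.85 ± 1.45 and 47.5 ± 6.26 CPM in phr1 phl1. The genotypes differed by -2.15 without MeJA (adjusted p = 7.4e-08) and by -0.28 ± 0.13 with it (adjusted p = 0.24), an interaction of 1.89 ± 0.23 (adjusted p = 4e-05). RHS12 likewise differed by -1.43 without MeJA and by -0.09 with it (interaction 1.35 ± 0.24, adjusted p = 0.031). AT4G39675, another uncharacterized protein and the gene on the negative side, differed by 1.64 without MeJA and by 0.11 with it (-1.52 ± 0.29, adjusted p = 0.047). PAP7 and G3PP1 kept their calls in all 12 fits that left out 1 of the MeJA libraries. RHS12 lost its call without Col-0 B2, or phr1 phl1 A1 or B3. GDPD1 and GLP9 lost theirs without those 3, Col-0 A2 or Col-0 B1, and OSM34 without those 3, Col-0 A1 or phr1 phl1 A2. PAP17 kept its call without Col-0 B3, or phr1 phl1 A3, B2 or B3, AT5G20790 without Col-0 A3 or phr1 phl1 A2, AT4G39675 without Col-0 B3 or phr1 phl1 B3, and PLDP2 without Col-0 B3, and each lost it in the other fits.

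PHT1;2 was not among the 10 genes. It went from 45.0 ± 20.7 to 5.08 ± 1.55 CPM in Col-0 and from 3.07 ± 1.16 to 0.435 ± 0.316 CPM in phr1 phl1, a difference of -3.82 without MeJA and -3.53 with it. PPSPASE1 went from 55.1 ± 47.3 to 9.36 ± 10.6 CPM in Col-0 and from 18.2 ± 8.22 to 32.4 ± 9.48 CPM in the mutant, but its interaction of 3.42 did not pass the test (adjusted p = 0.14). The same held for SPX1 (1.73, adjusted p = 0.085) and IPS1 (2.76, adjusted p = 0.056). IPS1 had group means of 36.7 ± 24.5 and 11.3 ± 5.82 CPM in Col-0 and of 4.32 ± 1.99 and 9.16 ± 3.78 CPM in phr1 phl1.

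**Figure D3:**
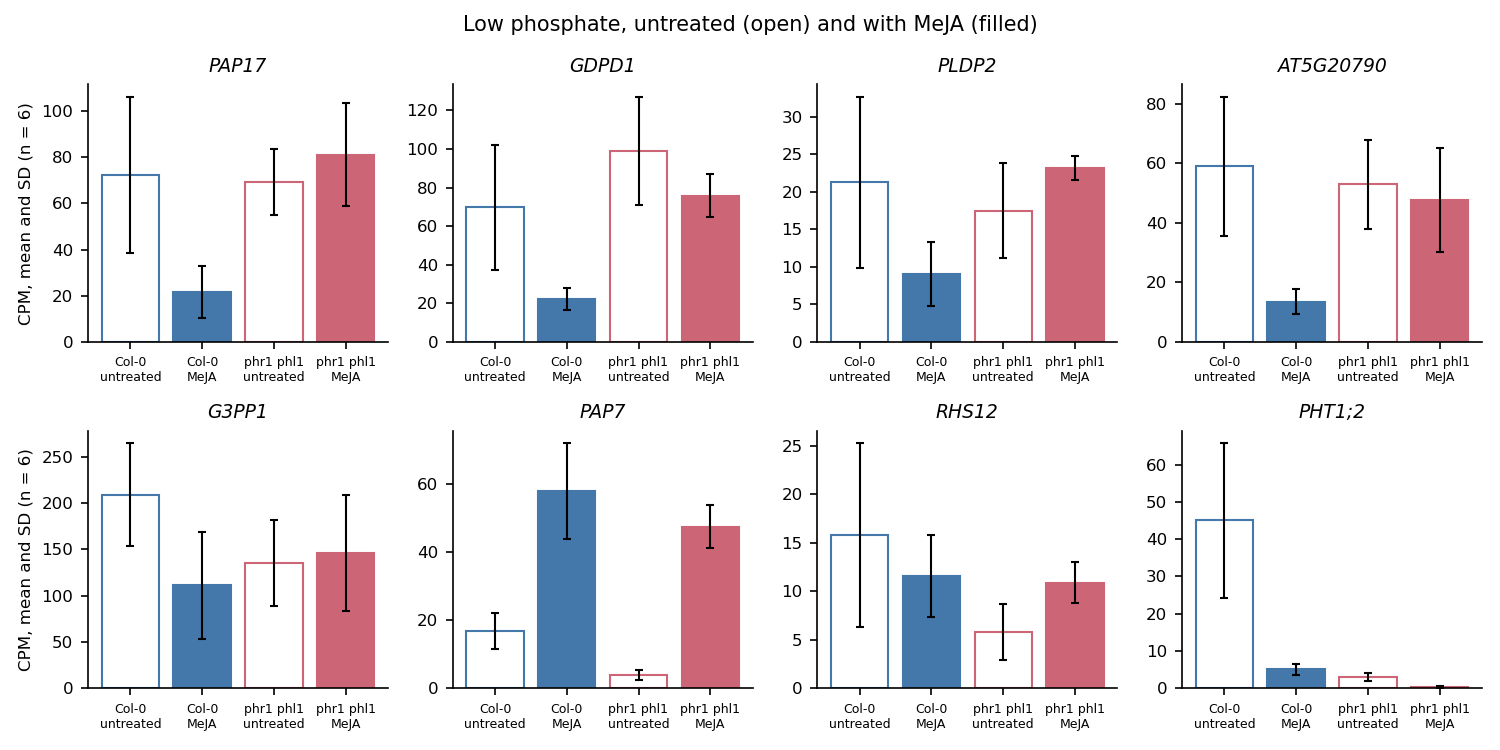
Mean level in CPM, with SD bars over 6 libraries, of 8 genes at low phosphate without (open) and with MeJA (filled) in Col-0 (blue) and phr1 phl1 (red). In PAP17, GDPD1, PLDP2 and AT5G20790 the filled Col-0 bar is the lowest of the 4, whereas PAP7 is higher with MeJA in both genotypes and PHT1;2 is lower in both.

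Genes of salicylic acid immunity stood higher in phr1 phl1 in these MeJA-treated seedlings. Of 28 members of the list, 19 were tested, 14 were higher and none lower, with a median of 0.82, and 8 did not overlap between the genotypes. Over all genes tested, 3.63% were higher, and 1.98% had the mutant higher without overlap. By DESeq2 14 list members were higher, and 0 were lower by DESeq2 or at an unadjusted edgeR p below 0.05. For 4 of the 19 no Col-0 library reached the level the filter asks for (2.77 CPM), so that they entered the test through the mutant, and all 4 were higher. These 4 are among the 8 without overlap, and for them that follows from the filter. The summed level of the list ran from 404 to 449 CPM in Col-0 and from 570 to 2730 CPM in phr1 phl1. The median of the list was 0.55 in experiment A and 0.91 in experiment B. Over the same libraries the summed photosynthesis level was lower in the mutant, as given above, and its part in the immunity values was not tested.

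PR1, the classical marker of salicylic acid responses, had 1 count in the 6 Col-0 libraries together and 7183 counts in the mutant. It lay between 0 and 0.153 CPM in Col-0 and at 43.5, 151 and 1180 CPM (lowest, median, highest) in phr1 phl1, without overlap. The ratio of the pooled levels was 7880, with an exact 95% interval of 1410 to 311000 that covers counting error only. Of the 7183 counts, 5210 came from phr1 phl1 B1, and without that library the ratio was 2690 (482 to 106000). The test gave an adjusted p of 0.00057, and 0.055 without Col-0 A2, the library with the 1 count. PCC1, another salicylic acid-dependent gene, lay between 0 and 0.706 CPM in Col-0 and at 3.24, 61.8 and 231 CPM in the mutant (8.67 ± 0.99, adjusted p = 0.00061). PBS3, an enzyme of salicylic acid synthesis, lay between 0 and 0.406 CPM against 3.53, 22.2 and 38.8 CPM (6.55 ± 0.67, adjusted p = 3.7e-05). These 3 are among the 4 members that entered the test through the mutant. In each of them every mutant library was above every Col-0 library, which follows from that filter.

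The regulators followed with smaller differences. WRKY70, a transcription factor between the salicylic acid and jasmonate branches, had 3.52, 3.96 and 10.6 CPM in Col-0 and 21.6, 45.2 and 102 CPM in phr1 phl1, without overlap (3.41 ± 0.40, adjusted p = 0.00034). CBP60G, a transcription factor that drives salicylic acid synthesis, was higher by 2.68 ± 0.26 (adjusted p = 1.5e-05), and ICS1, the first committed enzyme of that synthesis, by 0.82 ± 0.19 (adjusted p = 0.012). The lipase-like partners EDS1 and PAD4 were higher by 0.62 ± 0.13 and 0.83 ± 0.17 (adjusted p = 0.0057 and 0.0041). PR2, a glucanase, was higher by 3.22 ± 0.45 (adjusted p = 0.00053), and DMR6, which inactivates salicylic acid by hydroxylation, by 1.70 ± 0.32 (adjusted p = 0.0089). No Col-0 library of PR2 was above 2.34 CPM, scaled over all 72 libraries, which is below the 2.77 CPM of the filter. PR5 was not past the threshold (0.59 ± 0.24, adjusted p = 0.19).

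Of the 9 untested members, LURP1 averaged 0.288 CPM in Col-0 and 63.7 CPM in phr1 phl1, SARD1 0.900 and 12.2 CPM, and FMO1 0.996 and 12.0 CPM. They failed the filter, which asks for 6 libraries at 2.77 CPM. In LURP1 and SARD1 the genotypes did not overlap, and in FMO1 they did.

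Genes of pattern-triggered immunity, the response to microbial molecules at the cell surface, were higher for 5 of 15 tested members of 17 and lower for none (median 0.39), also by DESeq2 and with 0 lower at an unadjusted p below 0.05. Over all genes tested, 3.63% were higher. FRK1, a receptor kinase used as a marker of that response, had 0.353, 1.19 and 2.57 CPM in Col-0 and 6.49, 14.0 and 54.5 CPM in phr1 phl1, without overlap (3.94 ± 0.56, adjusted p = 0.0011). It was the member of which no Col-0 library reached the filter level, so its lack of overlap follows from the filter. WRKY53 (1.89 ± 0.31, adjusted p = 0.00075), the EF-Tu receptor EFR (1.84 ± 0.23, adjusted p = 3.7e-05), WRKY33 (1.00 ± 0.19, adjusted p = 0.0037) and the kinase BIK1 (0.56 ± 0.13, adjusted p = 0.011) were the others. Levels of EFR stayed at or below 11.1 CPM in every library.

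Camalexin is the indole phytoalexin of Arabidopsis, and 6 of the 7 genes of its list could be tested. All 6 tested were higher in phr1 phl1, with a median of 2.89, against 3.63% of all genes tested. PAD3, the last enzyme of camalexin synthesis, had 4.04, 5.60 and 7.39 CPM in Col-0 and 26.3, 51.8 and 121 CPM in the mutant, without overlap (3.39 ± 0.39, adjusted p = 0.00028). CYP71A12, which makes the indole intermediate, had 1.41, 3.39 and 5.46 CPM against 12.4, 22.6 and 58.2 CPM (2.99 ± 0.36, adjusted p = 0.00013). AT1G26380, a berberine bridge enzyme-like oxidase of a related indole pathway, had 0.706, 1.45 and 2.23 CPM against 11.8, 16.0 and 35.2 CPM (3.54 ± 0.32, adjusted p = 2.1e-06). Neither overlapped between the genotypes, but AT1G26380 had no Col-0 library at the filter level, so its lack of overlap follows from the filter.

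GSTF6, a glutathione transferase, was higher by 1.91 ± 0.15 (adjusted p = 2.6e-07) and CYP71B6 by 0.58 ± 0.10 (adjusted p = 0.0014). CYP71A13, a paralog of CYP71A12 that shares its place with another annotated gene, was at 2.80 ± 0.66 (adjusted p = 0.039). That call was lost in 9 of the 12 fits that left out 1 library, all but those without phr1 phl1 A3, B2 or B3 (adjusted p 0.052 to 0.11). At low Pi without MeJA the medians of the salicylic acid and camalexin lists were 0.62 and 2.397. In neither list did the genotype difference of any member itself differ with MeJA past the threshold, by edgeR or DESeq2, over 25 and 6 members tested. At an unadjusted p below 0.05, edgeR had 4 and 0 of them and DESeq2 4 and 3. Some salicylic acid genes were widely spread in untreated Col-0, as PR2 (29.9 ± 70.7 CPM, highest 174) and PR5 (33.5 ± 44.9 CPM, highest 125). No interaction fit left out an untreated library, so the part of this spread in the untreated median and in the lack of calls was not tested. PAD3 went from 2.91 ± 0.917 to 5.74 ± 1.49 CPM in Col-0 and from 15.2 ± 7.17 to 59.9 ± 35.7 CPM in phr1 phl1, an interaction of 1.03 (adjusted p = 0.85).

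**Figure D4:**
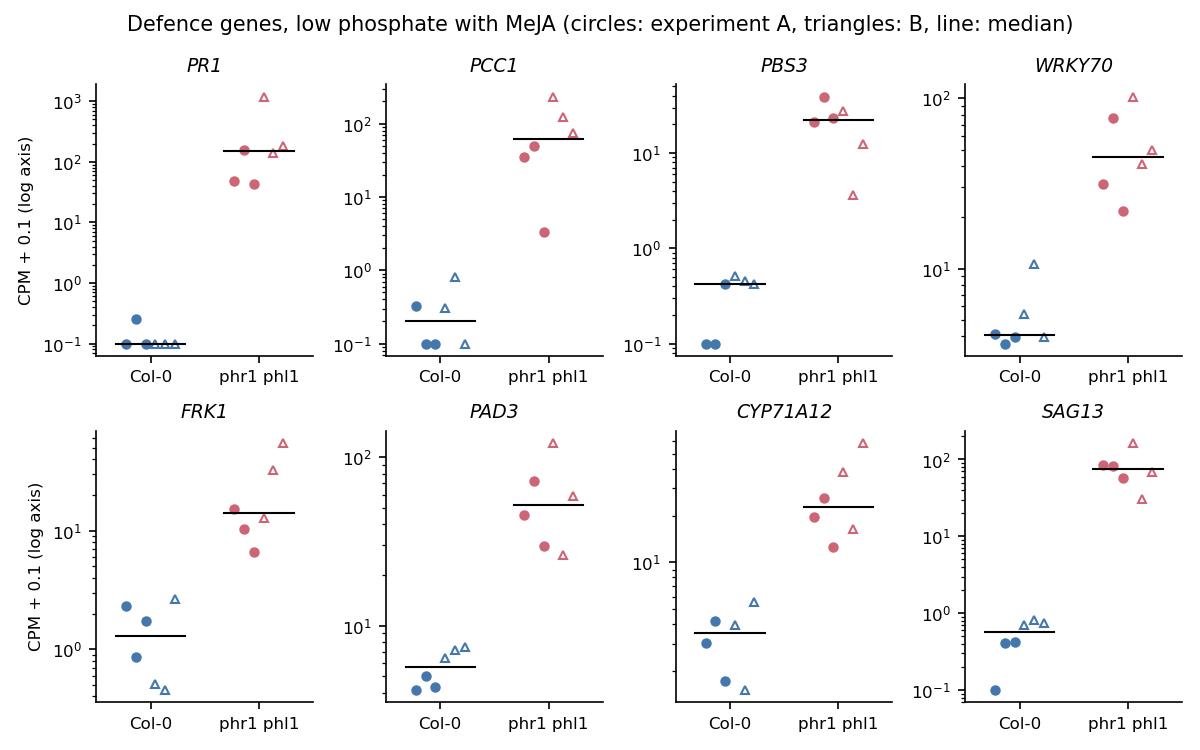
Levels of 8 defence genes in each library on a log axis, as CPM plus 0.1, with circles for experiment A, triangles for experiment B and a line at the median of 6 libraries. In all 8 genes the lowest phr1 phl1 library lies above the highest Col-0 library, and the mutant libraries of PR1 span 43.5 to 1180 CPM. PR1, PCC1, PBS3, FRK1 and SAG13 entered the test through the mutant alone, so their lack of overlap follows from the filter. Of all tested members, 8 of 19 salicylic acid, 3 of 15 pattern-triggered immunity and 5 of 6 camalexin genes did not overlap. Of these, 4, 1 and 1 entered the test through the mutant alone.

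The promoters of these genes were read for the core of the W-box, TTGAC on either strand, which WRKY transcription factors bind; this search was added after the values were known. The core lay in 50.9% of promoters of the genes tested, in 69.3% of the higher genes (426 of 615) and in 44.3% of the lower genes (131 of 296). With only the 250 bases before the start the shares were 44.8%, 61.0% and 38.9%. It lay in 12 of the 19 tested salicylic acid genes (63.2%), or 9 (47.4%) with only the 250 bases, and in 5 of 6 camalexin genes (83.3%) with either window, while the P1BS lay in none of either. PAD3 was the tested camalexin gene without it, and PCC1, PBS3, ICS1 and DMR6 were among the salicylic acid genes without it. The core also lay in 10 of the 14 lipid remodelling genes (71.4%). The stretches below were picked from genes that hold it. Shown are stretches of 2 camalexin list genes with large differences, ending at the base before the start, from chr1:9128569-9128668 and chr2:13101372-13101521, both on the minus strand, with the core (TTGAC, or GTCAA where it reads on the other strand) in capitals.
AT1G26380: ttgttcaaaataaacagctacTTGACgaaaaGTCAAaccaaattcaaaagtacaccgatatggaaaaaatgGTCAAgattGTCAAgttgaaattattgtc
CYP71A12: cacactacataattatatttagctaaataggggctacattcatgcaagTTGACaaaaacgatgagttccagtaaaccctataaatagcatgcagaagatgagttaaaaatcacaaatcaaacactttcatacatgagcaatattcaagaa
CYP71A12 holds the core 102 bases before the start within the stretch shown. AT1G26380 holds it 4 times, at 79, 69, 29 and 20 bases before the start.

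**Figure D5:**
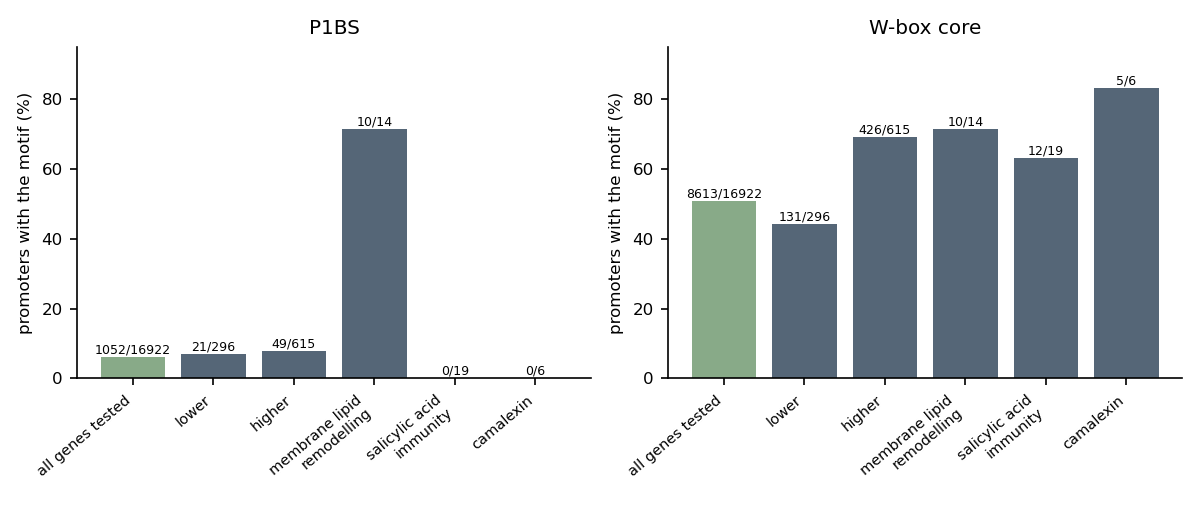
Share of promoters, in percent, that hold the P1BS (left) or the W-box core (right) among all genes tested, genes lower or higher in phr1 phl1 and the tested members of 3 lists, with the counts above the bars. The P1BS is most frequent in the lipid remodelling list (71.4%), and the W-box core stands at 69.3% of the higher genes and 50.9% of all genes tested.

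Outside these lists, 8 genes with large differences entered the test through the mutant alone, since no Col-0 library reached the 2.77 CPM of the filter, and their low Col-0 level is part of that selection. They are SAG13, AOX1D, WAK3, AT4G03450, CML41, AIG1, AT4G11170 and AT2G04070. SAG13, a short-chain dehydrogenase induced in senescing and infected leaves, lay between 0 and 0.706 CPM in Col-0 and at 30.5, 74.7 and 162 CPM in phr1 phl1 (7.54 ± 0.60, adjusted p = 1.9e-05). It was the only one of 9 tested senescence and chlorophyll breakdown genes past the threshold. AOX1D, an alternative oxidase of mitochondria, lay between 0 and 0.321 CPM against 3.53, 33.8 and 84.1 CPM (7.70 ± 0.74, adjusted p = 5.9e-05). For both, all mutant libraries lay above all Col-0 libraries, which follows from that filter.

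WAK3, a wall-associated kinase, had 0 counts in Col-0 and 200 in the mutant, at least 73.2-fold higher when Col-0 is set to a floor of 3 counts in all 6 libraries together, with an adjusted p of 0.027 that became 0.057 and 0.075 without Col-0 A3 or B2. AT4G03450, an ankyrin repeat protein, had 1 count against 222, a ratio of 244 with an exact 95% counting interval of 43.3 to 9670. The multidrug transporter ABCG40, which passed the filter in Col-0 as well, had 3.18, 4.50 and 6.10 CPM against 35.9, 87.3 and 177 CPM (4.37 ± 0.38, adjusted p = 2.4e-05). The others of the 8 were the calmodulin-like CML41 (5.12 ± 0.48, adjusted p = 9.6e-06), AIG1, which is induced by avirulent bacteria (4.81 ± 0.65, adjusted p = 0.0013), the TIR-NBS-LRR gene AT4G11170 (5.36 ± 0.45, adjusted p = 4.6e-07) and the MATE transporter AT2G04070, one of a cluster of near copies whose counts are uncertain (7.08 ± 0.47, adjusted p = 1.3e-07). ABCG40 did not overlap between the genotypes. These 4 did not either, but for them that follows from the filter. Without Col-0 A2, the difference of AT4G11170 was 6.05.

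Jasmonate genes differed little beside these. Of 15 tested synthesis genes of 16, 3 were higher and none lower (median 0.20, and 0.096 without Col-0 A3), with 4 higher by DESeq2 and 0 lower by DESeq2 or at an unadjusted edgeR p below 0.05. They were the lipoxygenases LOX3 (0.65 ± 0.15, adjusted p = 0.014) and LOX4 (0.60 ± 0.16, adjusted p = 0.035) and the ligase OPCL1 (0.39 ± 0.11, adjusted p = 0.038). The calls of LOX4 and OPCL1 were lost in 6 and 8 of the 12 fits that left out 1 library, with adjusted p up to 0.12 and 0.11, for LOX4 without Col-0 A2, A3 or B3, or phr1 phl1 A1, A2 or B3, and for OPCL1 without Col-0 A3, B1 or B2, or any mutant library but A3. Of 10 tested breakdown genes 1 was higher, the amidohydrolase IAR3 (0.47 ± 0.11, adjusted p = 0.011). None of 11 tested receptor and transcription factor genes passed the threshold in edgeR or DESeq2, and 1 was higher and 3 lower at an unadjusted p below 0.05. ORA59, which brings ethylene and jasmonate signals together on defensin genes, was at -0.57 ± 0.18 (adjusted p = 0.081).

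JAZ9 was the 1 of 11 tested JAZ repressors past the threshold, lower by -0.46 ± 0.13 (adjusted p = 0.039), a call kept in 4 of the 12 fits that left out 1 library (without Col-0 A3 or B1, or phr1 phl1 B2 or B3) and lost in the others, at adjusted p of 0.054 to 0.11. Outputs of the wound branch gave 2 higher and 1 lower of 11 tested (median 0.13, from -0.022 without phr1 phl1 A3 to 0.349 without Col-0 B3). The 2 were TAT3, a tyrosine aminotransferase (0.81 ± 0.19, adjusted p = 0.017, and 0.063 without Col-0 A3), and the protease inhibitor KTI1 (0.83 ± 0.18, adjusted p = 0.011, and 0.059 without Col-0 B2). DR4 was lower by -0.60 ± 0.12 (adjusted p = 0.0037). The list's median had opposite signs in the experiments, 0.55 in A and -0.36 in B, as did the storage protein gene VSP2, at 0.95 and -0.37.

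The branch that jasmonate shares with ethylene was divided more sharply, with 3 lower and 2 higher of 9 tested members (median -0.54). The lower ones were plant defensins, small antifungal peptides. PDF1.2 had 567, 794 and 1630 CPM in Col-0 and 210, 483 and 750 CPM in phr1 phl1, ranges that overlapped (-0.96 ± 0.20, adjusted p = 0.0059). PDF1.2c (-1.09 ± 0.23, adjusted p = 0.0089) and PDF1.3 (-1.30 ± 0.26, adjusted p = 0.0078) were lost as calls without Col-0 B2, at 0.059 and 0.052. These defensins are near copies whose counts are uncertain, so the 3 are hardly separate observations. PR4, a chitin-binding protein, was higher, at 334, 410 and 537 CPM against 624, 755 and 974 CPM, without overlap (0.85 ± 0.15, adjusted p = 0.00095). OSM34 was higher by 0.64 ± 0.14 (adjusted p = 0.0085). In Col-0 at low Pi without MeJA the mean of PDF1.2 was 0.634 ± 0.733 CPM and that of VSP2 1.06 ± 0.46 CPM, against 953 ± 400 and 388 ± 131 CPM with it. In phr1 phl1 they went from 1.97 ± 1.88 to 512 ± 225 CPM and from 1.12 ± 0.194 to 502 ± 228 CPM. In the fit of all 72 libraries none of the 13 called jasmonate genes passed the threshold (adjusted p 0.064 to 0.49). That fit takes its spread from all groups. They include phr1 phl1 high Pi untreated, whose library B1 had high jasmonate genes in earlier results of these data.

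Root hair genes held 3 lower and no higher among 18, all tested, with a median of -0.17 (-0.273 without Col-0 B2 and -0.044 without Col-0 B3), against -1.06 without MeJA. DESeq2 called 3 lower and 0 higher, and 0 were higher at an unadjusted edgeR p below 0.05. The lower ones were RHS13 (-0.65 ± 0.14, adjusted p = 0.0082), the arabinogalactan protein AGP3 (-0.63 ± 0.14, adjusted p = 0.0091) and the peroxidase RHS19 (-0.57 ± 0.15, adjusted p = 0.032). The last call was lost without Col-0 A3 or B3, or phr1 phl1 A2, B1 or B3, at adjusted p of 0.057 to 0.087, and all 3 calls were lost in the fit of 72 libraries (0.061 to 0.083). The summed level of the list ran from 253 to 464 CPM in Col-0 and from 187 to 383 CPM in phr1 phl1. Of 35 photosynthesis genes 5 were lower and none higher (median -0.36, with -0.14 in experiment A, -0.53 in B and -0.214 without Col-0 B2), against 12 lower by DESeq2 and 20 lower at an unadjusted edgeR p below 0.05, with 0 higher in either. Over all genes tested, edgeR called 1.75% lower. Among the 5 photosynthesis genes was the Rubisco small subunit RBCS2B (-0.70 ± 0.16, adjusted p = 0.0091). RBCS2B had 927, 1020 and 1670 CPM in Col-0 and 486, 737 and 792 CPM in phr1 phl1, without overlap.

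The remaining lists gave few calls. DFR, an enzyme of anthocyanin synthesis, was the 1 lower gene of 13 tested in that pathway, at 63.9, 198 and 313 CPM against 50.8, 95.5 and 170 CPM (-0.98 ± 0.23, adjusted p = 0.02, and 0.11 without Col-0 B2). All 13 lay between -0.98 and -0.02, with a median of -0.36 (-0.212 without phr1 phl1 B3). The nitrilase NIT2 was higher (1.61 ± 0.18, adjusted p = 1.2e-05) and the nitrile specifier NSP3 lower (-0.69 ± 0.16, adjusted p = 0.011) among 14 tested genes of glucosinolate breakdown. Of 12 tested genes of sulfate supply 2 were higher, the sulfate reduction enzyme APR2 (0.60 ± 0.14, adjusted p = 0.011) and the transporter SULTR1;2 (0.64 ± 0.17, adjusted p = 0.039). The SULTR1;2 call was lost in 8 of the 12 fits that left out 1 library (Col-0 A3, B1, B2 or B3, or phr1 phl1 A1, A2, B2 or B3; adjusted p 0.055 to 0.091). Of 11 tested endoplasmic reticulum genes 1 was higher, the stress sensor BZIP60 (0.79 ± 0.12, adjusted p = 0.00033). No gene passed the threshold among 26 aliphatic and 14 indole glucosinolate synthesis genes, 10 anthocyanin regulators, 22 iron deficiency genes, 5 ferritin and vacuolar iron transporter genes, 11 nitrate genes, 12 endodermis genes and 13 cell division genes in edgeR. At an unadjusted p below 0.05 edgeR had 6 lower aliphatic glucosinolate genes, 2 higher and 1 lower indole glucosinolate genes, 2 lower anthocyanin regulators, 1 higher iron deficiency gene, 1 lower cell division gene and 0 in the other 3 lists. DESeq2 called 2 lower aliphatic glucosinolate genes, 1 lower anthocyanin regulator and 1 higher iron deficiency gene of these lists.

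On the lower side the differences were of modest size. PP2-A13, a phloem protein homolog, had 10.4, 16.9 and 22.3 CPM in Col-0 and 5.13, 5.75 and 9.38 CPM in phr1 phl1, without overlap (-1.40 ± 0.17, adjusted p = 1.9e-05). OXS3, a nuclear protein of oxidative stress tolerance, was lower by -1.50 ± 0.28 (adjusted p = 0.0041) and the AP2/ERF gene RAP2.9 by -1.49 ± 0.26 (adjusted p = 0.0011), neither with overlap. The cyclin CYCP2;1 (-1.37 ± 0.22, adjusted p = 0.00053), the BTB-TAZ gene BT5 (-1.28 ± 0.27, adjusted p = 0.015) and the fructose-bisphosphate aldolase FBA5 (-1.18 ± 0.23, adjusted p = 0.0057) were lower with ranges that overlapped.

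Phosphate supply was the other setting against which the genotype difference was tested, over the 24 MeJA libraries. Of 17566 genes, 55 (0.313%) had a more positive difference at low than at high Pi and 30 (0.171%) a more negative one. At high Pi with MeJA, phr1 phl1 had 66 genes higher and 46 lower than Col-0 of 16527 tested, but the Col-0 libraries there were shallow, with 692426 to 2403150 counts. PHO2 differed by 2.24 at low Pi and by 1.31 at high Pi (interaction 0.93 ± 0.22, adjusted p = 0.043). MGD2 differed by 1.54 and -0.40 (1.94 ± 0.40, adjusted p = 0.024), DGD1 by 0.57 and -0.08 (0.64 ± 0.14, adjusted p = 0.032) and SPX2 by 0.54 and -0.34 (0.88 ± 0.19, adjusted p = 0.028). PHT1;1 differed by -0.81 at low Pi and by -0.03 at high Pi (-0.79 ± 0.18, adjusted p = 0.04). Each of these 5 phosphate genes differed more between the genotypes at low Pi. IPS1, also of the phosphate lists and past the threshold, differed more at high Pi instead, and its counts are given below. MGD2 kept its call in all 12 fits that left out 1 of the low Pi libraries and SPX2 in 11, all but that without phr1 phl1 B1. The call of DGD1 was lost without Col-0 A2 or A3, or phr1 phl1 A1 or A2. That of PHO2 was lost without Col-0 A2, A3 or B2, or phr1 phl1 A1, A2 or B1 (adjusted p 0.057 to 0.088). That of PHT1;1 was lost without Col-0 A1, A2, A3 or B3, or phr1 phl1 A1, A2 or B1 (adjusted p 0.053 to 0.078).

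In the immunity lists WRKY70 differed by 3.41 at low Pi and by 0.26 at high Pi (3.16 ± 0.65, adjusted p = 0.032), and CBP60G by 2.68 and 0.72 (1.96 ± 0.43, adjusted p = 0.035). GSTF6 of the camalexin list differed by 1.91 and 0.49 (1.42 ± 0.31, adjusted p = 0.037). The chitinase gene AT2G43570 differed by 4.17 and 0.46 (3.71 ± 0.63, adjusted p = 0.013) and the cytochrome P450 CYP81D8 by 3.39 and 0.45 (2.94 ± 0.41, adjusted p = 0.00097). On the negative side, RHS13, AGP3 and RHS19 of root hairs had interactions of -0.96, -0.95 and -0.86 (adjusted p = 0.032, 0.028 and 0.045), and PP2-A13 one of -1.92 ± 0.30 (adjusted p = 0.0027). IPS1 was also past that threshold, but it had 0 counts in the 6 Col-0 libraries at high Pi with MeJA and 248 in the mutant, so no size is given, and the call was lost without Col-0 B2 (adjusted p = 0.051). For comparison, it had 253 and 206 counts at low Pi. AT2G43570, CYP81D8 and PP2-A13 kept their calls in all 12 such fits. Calls were lost without Col-0 A2 or A3 for WRKY70, without Col-0 A3 or phr1 phl1 B1 for AGP3, and without Col-0 A3 or B2, or phr1 phl1 A2 or B1, for RHS13. CBP60G lost its call in 6 of the 12 fits (Col-0 A1, A2, A3 or B2, or phr1 phl1 A1 or B1) and GSTF6 in 7 (Col-0 A1, A3 or B2, or phr1 phl1 A1, A2, B1 or B3). RHS19 lost it in 8 (Col-0 A1, A2, A3 or B3, or phr1 phl1 A2, A3, B1 or B3).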

How the data were processed

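The file deposited by the authors holds unnormalized read counts, as whole numbers, for 27206 loci in 72 libraries. Per the labels' protocols, poly(A) RNA from 1000 ng of total RNA gave non-stranded libraries. Per the submitters' processing notes, tools included TopHat2 2.1.1 and HTSeq 0.6.1p1, with cutadapt 1.3, CASAVA 1.8 and the build TAIR10, and no roles are given. Symbols and promoters came from RefSeq's TAIR10.1 annotation, which named 26719 loci.

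The counts were tested with edgeR 4.0.16 (R 4.3.3): TMM scaling, filterByExpr (minimum count 10, here 2.77 CPM in 6 libraries), a robust quasi-likelihood fit of the 12 libraries with genotype and experiment, and Benjamini-Hochberg adjustment at 0.05. Interactions used 24 libraries with an experiment effect within each condition. The SE is the log2 difference divided by the square root of F. The common biological coefficient of variation was 0.147. The scripts were tested on simulated data. Alternatives included limma 3.58.1, DESeq2 1.42.0 and leaving out each library. No 2 libraries of a group agreed within sampling noise (chi-square per degree of freedom at least 2.23). The labels name biological replicates from separate experiments but not separate cultures, so p-values measure the spread between these libraries.

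Members and lists were chosen with earlier results of these data known. Named genes are the 15 highest and 15 lowest among those called with equal signs in experiments A and B and an average log2 CPM of 1 or more. To these came up to 4 called genes per list, or those of smallest p where none was called, and PHR1 and PHL1. Up to 5 genes each way per interaction were added by the same sign and level rule, called in that interaction but not always for genotype. The text prints fewer, and the other genes it names were picked after their values were seen.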

Additional observations from a re-analysis of the deposited data

Results flagged for a closer look

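In 25 of at most 202 groups of 6 libraries the highest or lowest library stood apart from the other 5. Groups with 3 counts or fewer were skipped. The rule flags about 1 in 20 groups of 6 normally distributed values. CPM need not be so distributed, each group mixes experiments A and B, and the genes were chosen, so no excess over chance is claimed. The library Col-0 A3 held 7 of the 25 flags. It had 20.0 CPM of PHL1 (the other 5 at 9.64 to 13.5), 8.08 CPM of PHT1;2 (3.88 to 4.82), 47.8 CPM of SPX1 (17.6 to 28.5), 22.3 CPM of SPX4 (15.8 to 18.2) and 245 CPM of the non-coding RNA AT4 (62.8 to 101). It also had 63.0 CPM of AGP3 (36.3 to 44.8) and a low 2.26 CPM of OCT1 (2.89 to 3.25). Col-0 B2 had 0.706 CPM of PCC1 (0 to 0.224), 10.6 CPM of WRKY70 (3.52 to 5.28), 68.5 CPM of OXS3 (18.8 to 29.4), 36.0 CPM of CYCP2;1 (7.49 to 17.7) and a low 32.1 CPM of SQD2 (72.1 to 95.7). Col-0 B1 had 18.3 CPM of PHO1;H1 (8.75 to 11.3), Col-0 B3 30.2 CPM of PPSPASE1 (3.18 to 7.11) and Col-0 A2 25.8 CPM of EDS1 (21.9 to 23.4).

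Of the mutant libraries, phr1 phl1 B1 stood apart in 7 genes. It had 1180 CPM of PR1 (43.5 to 181), 93.7 CPM of PR5 (25.9 to 46.9), 117 CPM of CYP71A13 (12.7 to 42.4), 1020 CPM of PHO2 (786 to 819), 26.0 CPM of PLDP2 (21.8 to 22.3), 123 CPM of PAP17 (64.2 to 79.8) and a low 486 CPM of RBCS2B (698 to 792). phr1 phl1 B3 had 35.2 CPM of AT1G26380 (11.8 to 17.1) and 23.9 CPM of AT4G11170 (7.92 to 13.2), and phr1 phl1 A2 had 9.38 CPM of PP2-A13 (5.13 to 6.12).

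Genotype differences (log2, phr1 phl1 minus Col-0) that differed with MeJA at low Pi by the interaction test were those of PAP17 (1.996), AT5G20790 (1.964), PAP7 (1.887), PLDP2 (1.627), RHS12 (1.347), GDPD1 (1.235), OSM34 (1.201), GLP9 (1.176), G3PP1 (1.124) and AT4G39675 (-1.523), given as the value with MeJA minus that without. Those that differed with phosphate under MeJA, as low minus high Pi, were AT2G04070 (7.298), AT2G43570 (3.714), WRKY70 (3.162), CYP81D8 (2.941), CBP60G (1.959), MGD2 (1.937), GSTF6 (1.423), APR2 (1.015), PHO2 (0.930), SPX2 (0.881) and DGD1 (0.644) on the positive side. On the negative side were PHT1;1 (-0.787), DR4 (-0.795), RHS19 (-0.858), AGP3 (-0.948), RHS13 (-0.961), PP2-A13 (-1.920) and AT5G22920 (-2.204).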

How the results depend on the processing

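The count of higher genes was 615 and that of lower genes 296. Without the experiment term 109 were lower. Fits of a single experiment gave 301 higher and 129 lower in experiment A alone and 376 and 48 in experiment B alone. Leaving out 1 library gave 485 to 668 higher and 144 to 334 lower. RLE or upper-quartile scaling, no filter, a minimum count of 30, DESeq2, limma voom and fits of 72 or 71 libraries kept both counts within 1.5 times, but not always the same genes. The fit of 71 libraries left out phr1 phl1 high Pi untreated B1. Of the 911 called, DESeq2 shared 906 and limma voom 839, whereas the fits of 72 and 71 libraries shared 653 and 668 and that without the experiment term 547. Of the 84 called genes named in the text, 25 and 23 lost their call with 72 and 71 libraries and 22 without the experiment term. In experiment A alone 29 of 83 tested lost it, and in experiment B alone 37 of 83. None of the 84 changed sign, and 17 lost the call in at least 1 fit without a library. Values that changed sign were those of genes not called, IPS1 at 0.085 without Col-0 A3 (range without 1 library -0.401 to 0.085), RHS12 at 0.056 in experiment B alone (range -0.192 to 0.003), VSP2 at -0.371 in B alone and AT4G39675 at -0.072 in A alone.

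The interactions were less stable. Against 9 more positive and 1 more negative genes with MeJA than untreated, DESeq2 gave 32 and 3, a single experiment term 1 and 0, a fit of 72 libraries 2 and 0, experiment A alone 1 and 0, experiment B alone 2 and 0 (with 467, 364, 718 and 481 genes on the negative side at an unadjusted p below 0.05 in the 4 edgeR fits that called 0), and leaving out 1 library 2 to 17 and 0 to 1 (350 to 722 on the negative side unadjusted). The lowest counts were 2 without Col-0 B2 or phr1 phl1 A1, 3 without phr1 phl1 B3, 4 without Col-0 A2 or B1 and 5 without Col-0 A1, and the highest was 17 without Col-0 B3. Against 55 and 30 at low than high Pi, DESeq2 gave 161 and 73, a single experiment term 20 and 7, 72 libraries 12 and 1, experiment A alone 102 and 93, and experiment B alone 0 and 0, where edgeR had 310 and 316 at an unadjusted p below 0.05; leaving out 1 library gave 32 to 103 and 12 to 45. On the positive side it was 32 without Col-0 A3, 36 without phr1 phl1 A1, 84 without phr1 phl1 A3 and 103 without phr1 phl1 B2, and on the negative side 12 without phr1 phl1 B1 and 16 without Col-0 A2, Col-0 A3 or phr1 phl1 A1. Without Col-0 high Pi MeJA B1, the shallowest library, a choice made after seeing the data, 44 and 20 were past the threshold. The cause of these shifts was not tested.

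The labels tie replicate numbers to nothing shared between the genotypes. Same-numbered libraries deviated together with correlations of 0.0123 to 0.132, of which only that of B1 was over 0.1, so the numbers were not taken as pairs, although all 6 were positive and 5 of 6 libraries correlated best with their own number. A fit with the replicate block gave 673 higher and 370 lower genes, 4 and 0 for the MeJA interaction and 15 and 7 for the phosphate interaction. In it SQD2 (adjusted p = 0.058) and CYP71A13 (0.13) were not past the threshold for genotype, nor were AT4G39675 (0.063), OSM34, GDPD1, PAP17, RHS12, PLDP2 and GLP9 (0.066 to 0.32) for the MeJA interaction. Of the phosphate interactions named, those of MGD2, AT2G04070, AT2G43570, CYP81D8, PP2-A13 and AT5G22920 were past it. Depth limits genes near 2.77 CPM, and the Col-0 libraries at high Pi with MeJA most of all.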
